A study of Mus musculus with 37 samples.

Results

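Splenocytes that had been exposed for 48 h to RAW264.7 cells, or to the medium of those cells, had lower counts of SKAP1, ARL15, TIAM1 and LYPLA2 than naive splenocytes. These are 4 of the 60708 gene IDs of the count table (ENSG00000141293.16, ENSG00000185305.11, ENSG00000156299.13 and ENSG00000011009.11), and all 4 passed the filter on low counts, which kept 5193 IDs. They were chosen on the naive against exposed values of these same libraries, so their lower level after exposure is described here and not tested. None of them was absent after exposure. In the 35 exposed libraries the only zero count was that of LYPLA2 in 1 library, so "lost" would overstate what was measured.

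All samples were splenocytes from wild-type FVB mice, a mixture of lymphocytes and other spleen cells left after red cell lysis. RAW264.7 is a mouse macrophage-like cell line. For 72 h before the exposure, the RAW cells had been kept at 21% oxygen (normoxia) or at 1% oxygen (hypoxia). SPP1, also called osteopontin, an integrin and CD44 ligand that cells secrete, had been added to part of these RAW cultures. Splenocytes then received the medium of the RAW cells (medium, 11 libraries), the RAW cells themselves (cells, 12 libraries) or RAW cells whose medium had been washed off (washed, 12 libraries). With 2 oxygen levels and SPP1 present or absent, this gives 12 exposed groups of 3 libraries each, except medium from normoxia without SPP1, which had 2 (replicates 2 and 3). The 13th group was naive splenocytes, with 2 libraries, which the labels put with neither RAW cells nor their medium. The labels do not say whether the naive splenocytes spent the same 48 h in culture, so exposure and time in culture cannot be told apart in any comparison with naive. The study's methods also say that a drug, brefeldin A, was added to the co-cultures after 48 h, ahead of collecting the splenocytes. Whether the naive or the medium splenocytes received it is not stated, so its effect cannot be told apart from these either. The labels say that splenocytes were collected from the cultures, and the study describes the profiled cells as lymphocytes isolated from them, with no method of isolation named for the RNA. How much RAW RNA the cells and washed libraries held was not tested.

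SKAP1 is an adaptor protein that links the T cell receptor to integrin adhesion, through its partner FYB1. ARL15 is a small GTP-binding protein of the ARF-like family, known as a partner of the CNNM magnesium transporters. TIAM1 is an exchange factor that loads RAC1 with GTP and so acts on the actin cytoskeleton. LYPLA2 is an acyl-protein thioesterase, which removes palmitate from membrane-anchored signalling proteins. T cells use adhesion and cytoskeletal proteins of these kinds when they leave the circulation and settle on antigen-presenting cells.

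The reads were mouse, but the counts were made against the human genome GRCh38, so each value is the number of mouse 3′ end reads that aligned to the human gene. A low count can therefore come from low expression or from a 3′ end that differs between the species. Levels were compared within a gene and not between genes. Which mouse gene the reads of each ID came from was not checked, and the mouse genes below are matched to the IDs by symbol. Symbols are those that define the 4 genes here. Of the 60708 IDs, 0 occurred in the mouse gene table used, and the lists of related pathway genes and of cell type markers could not be applied. The splenocyte label was therefore not checked against markers of T cells, B cells or macrophages.

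In the mouse genome (GRCm38, GENCODE annotation), Skap1 lies on the plus strand at chr11:96464593-96759130 and overlaps the lincRNA 2010300F17Rik on the other strand. Arl15 lies on the plus strand at chr13:113794505-114157461, with A430090L17Rik and Gm47479 on the other strand. Tiam1 lies on the minus strand at chr16:89787111-90143769, with the pseudogene Gm2805 opposite. Lypla2 is on the minus strand at chr4:135968224-135972626 and overlaps no other annotated gene. The library kit keeps strand, but the strand setting of the counting was not stated.

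The starts of these genes are shown to print what their start regions hold. The 4 genes were chosen for being lower after exposure, so nothing about shared control is read from the motifs. RefSeq windows of 300 bases (250 before and 50 from the start, GRCm38.p6) matched 3 of the 4 genes, with 1 window for Arl15, 2 for Tiam1 and 1 for Lypla2, and Skap1 had none. The windows are chr13:113794258-113794557 (plus strand) for Arl15, chr16:89974650-89974949 and chr16:89818303-89818602 (minus strand) for Tiam1 and chr4:135972545-135972844 (minus strand) for Lypla2. Both Tiam1 windows lie inside the annotated gene. Capitals mark the CCAAT box, the GC box spelled GGGCGG, the TATA box spelled TATAAA and an ETS-type motif spelled GGAAGT, each searched on both strands.
Arl15: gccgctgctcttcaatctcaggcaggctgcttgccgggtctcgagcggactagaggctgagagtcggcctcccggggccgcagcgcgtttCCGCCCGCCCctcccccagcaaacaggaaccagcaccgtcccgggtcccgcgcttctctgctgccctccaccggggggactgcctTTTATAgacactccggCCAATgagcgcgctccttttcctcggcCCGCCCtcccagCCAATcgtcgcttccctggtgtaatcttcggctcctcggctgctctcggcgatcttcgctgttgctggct
Tiam1 first window: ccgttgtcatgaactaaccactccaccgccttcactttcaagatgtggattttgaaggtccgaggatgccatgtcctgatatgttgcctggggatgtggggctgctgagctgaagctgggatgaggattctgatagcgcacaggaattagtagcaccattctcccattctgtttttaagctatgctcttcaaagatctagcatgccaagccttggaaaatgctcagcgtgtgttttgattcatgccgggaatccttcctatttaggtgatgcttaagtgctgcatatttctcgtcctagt
Tiam1 second window: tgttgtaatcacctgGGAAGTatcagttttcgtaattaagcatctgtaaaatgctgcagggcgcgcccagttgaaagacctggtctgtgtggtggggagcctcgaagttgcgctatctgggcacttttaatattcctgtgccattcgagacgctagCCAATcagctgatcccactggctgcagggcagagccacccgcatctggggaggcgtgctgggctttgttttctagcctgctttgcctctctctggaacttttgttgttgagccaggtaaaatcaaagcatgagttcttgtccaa
Lypla2: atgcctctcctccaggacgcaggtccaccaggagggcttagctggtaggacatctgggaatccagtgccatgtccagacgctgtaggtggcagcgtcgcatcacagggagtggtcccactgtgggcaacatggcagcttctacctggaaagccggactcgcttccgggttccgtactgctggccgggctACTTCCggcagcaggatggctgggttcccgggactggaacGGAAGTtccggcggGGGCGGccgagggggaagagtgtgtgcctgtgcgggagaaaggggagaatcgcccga
CCAAT occurred in 2 of the 4 windows, against 37.4% of 32851 promoter windows of the same length, and GGGCGG in 2 of the 4 against 35.7%. TATAAA occurred in the Arl15 window alone, against 13.6% of all windows, and GGAAGT in 2 of the 4 against 23.8%. No motif was in all 4 windows, and the first Tiam1 window held none of the letters searched.

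The 37 libraries held 631574 to 1337314 counts each, with a median of 1063211, and the shallowest was naive replicate 2. Replicates of a group differed by more than counting noise in all 35 pairs compared (chi-square per degree of freedom 2.78 to 42.9). The design text calls the experiments independent, but nothing says that replicates came from separate mice, so p-values measure the spread between these samples, which may in part be technical. Levels are given as CPM, the count scaled to the library size, and intervals beside single libraries are exact 95% Poisson intervals that cover counting error only.

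On a principal component map of all tested IDs, 6 libraries stood apart from others of their mode. They were set apart after the data had been seen. On the first component, 9 medium libraries lay between -57.5 and -41.5, whereas hypoxic medium without SPP1 (replicate 1) was at -11.6 and normoxic medium without SPP1 (replicate 3) at -10.7. On the second component, 3 washed libraries with SPP1 were far below the rest, namely replicate 1 of hypoxia (-54.4) and replicates 1 (-53.3) and 2 (-31.8) of normoxia, as was replicate 2 of cells from hypoxia without SPP1 (-32.3). The first 2 of these were also the shallowest exposed libraries, at 761571 and 691539 counts. Washed hypoxia no-SPP1 replicate 2, at -7.86 on the second component, was not set apart. The other washed libraries that were kept lay between 5.62 and 18.5 there. The comparisons of modes, and the differences within modes at an unadjusted p under 0.05, are given with and without the 6 libraries.

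The 2 naive libraries did not agree for SKAP1 and ARL15. SKAP1 was at 91.7 CPM in naive replicate 1 (94 counts, 95% interval 74.1 to 112) and at 337 CPM in replicate 2 (259 counts, 298 to 381). ARL15 was at 93.7 CPM (96 counts, 75.9 to 114) and 429.8 CPM (330 counts, 385 to 479). Both were higher in replicate 2, by 3.68-fold and 4.59-fold, and the intervals do not overlap. TIAM1 went the other way, at 577 CPM (591 counts, 531 to 625.3) in replicate 1 and 315 CPM (242 counts, 277 to 358) in replicate 2, a 1.83-fold difference. LYPLA2 was at 77.1 CPM (79 counts, 61.04 to 96.1) and 91.2 CPM (70 counts, 71.1 to 115), and the intervals of this thioesterase gene overlap. Over the 2441 IDs with a mean of at least 20 naive counts, the median absolute log2 ratio of the 2 naive libraries was 0.45. Of these IDs, 2.83% were at least as far apart as SKAP1, 1.56% as ARL15, 21.6% as TIAM1 and 70.5% as LYPLA2. The size of any fall of SKAP1 and ARL15 from naive thus depended on which naive library was taken.

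**Figure D1:**
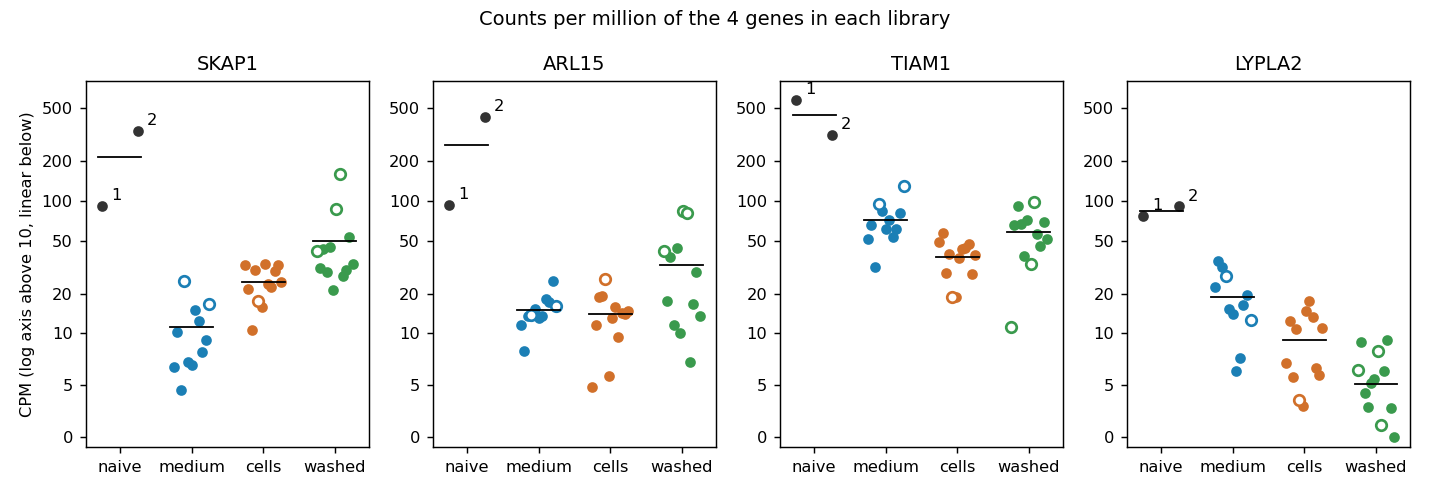
CPM of SKAP1, ARL15, TIAM1 and LYPLA2 in each of the 37 libraries (y axis, logarithmic above 10 CPM and linear below), by naive, medium, cells and washed. Each point is a library, horizontal lines are means, naive points carry their replicate number, and open circles are the 6 libraries that stood apart. All exposed points of ARL15, TIAM1 and LYPLA2 lie below both naive points, and 1 washed point of SKAP1, at 159.6 CPM, lies between the naive points.

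Of the 35 exposed libraries, 35 were below both naive libraries for ARL15, for TIAM1 and for LYPLA2, and 34 for SKAP1. All 35 exposed libraries lay below both naive libraries for 315 of the 5193 tested IDs (6.07%), and since the genes were chosen on this contrast nothing is read from their number. The SKAP1 exception was washed normoxia SPP1 replicate 2, at 159.6 CPM, which is 1 of the 6 libraries that stood apart. The nearest exposed libraries to the lower naive value were at 84.5 CPM for ARL15, 129.7 CPM for TIAM1 and 35.1 CPM for LYPLA2. TIAM1 and LYPLA2 thus left a gap of more than 2-fold between the lowest naive and the highest exposed library, and ARL15 did not.

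All comparisons with naive share the same 2 naive libraries, so a high or low value there moves every one of them together. The following fitted log2 fold changes are exposed minus naive, with the standard error of the fit, and are a description. Levels of single libraries are listed in the order of their replicate numbers.

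SKAP1, the T cell adaptor, was lowest with medium. Its lowest, median and highest levels were 4.49, 9.36 and 24.7 CPM with medium, 10.7, 23.9 and 33.2 CPM with cells and 21.2, 37.5 and 159.6 CPM with washed cells. Averaged over the 4 groups of each mode, SKAP1 was -4.26 (SE 0.383), -3.13 (SE 0.370) and -2.23 (SE 0.379) against naive on the log2 scale, or 19.2-fold, 8.78-fold and 4.68-fold lower. Taken against naive replicate 1 alone, the ratios of naive to mean exposed CPM were 8.27, 3.75 and 1.83, and against replicate 2 alone they were 30.4, 13.8 and 6.74. The size of the fall thus differed with the naive library taken.

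Among the splenocytes given medium, the SKAP1 levels were 9.36 and 16.7 CPM in normoxia without SPP1, 15.1, 12.4 and 8.16 CPM in normoxia with SPP1, 24.7, 7.25 and 6.96 CPM in hypoxia without SPP1, and 6.77, 10.2 and 4.49 CPM in hypoxia with SPP1. Against naive, these 4 groups were at -4.02 (SE 0.659), -4.14 (SE 0.575), -4.01 (SE 0.567), and -4.88 (SE 0.607) on the log2 scale. The first hypoxia without SPP1 library, at 24.7 CPM, stood apart on the principal component map, and the other 10 medium libraries did not pass 16.7 CPM. Among those given RAW cells, the SKAP1 levels were 29.5, 32.99 and 24.3 CPM in normoxia without SPP1, 33.2, 23.5 and 22.2 CPM in normoxia with SPP1, 30.04, 17.6 and 15.8 CPM in hypoxia without SPP1, and 32.7, 21.5 and 10.7 CPM in hypoxia with SPP1. For these groups the log2 fold changes against naive were -2.88 (SE 0.536), -3.02 (SE 0.536), -3.34 (SE 0.555), and -3.30 (SE 0.544). SKAP1 thus stayed within about a 3-fold range over the 12 cells libraries. Among those given washed RAW cells, the SKAP1 levels were 30.05, 53.01 and 33.2 CPM in normoxia without SPP1, 86.1, 159.6 and 27.2 CPM in normoxia with SPP1, 28.9, 44.9 and 21.2 CPM in hypoxia without SPP1, and 41.8, 31.2 and 43.1 CPM in hypoxia with SPP1. Fitted against naive, they were at -2.46 (SE 0.528), -1.24 (SE 0.514), -2.75 (SE 0.536), and -2.47 (SE 0.531) on the log2 scale. The 2 highest values, both in normoxia with SPP1, belonged to libraries that stood apart, and the remaining library of that group was at 27.2 CPM, among the other washed libraries.

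ARL15, the ARF-like GTPase, was about as low with medium as with cells. Its lowest, median and highest levels were 8.32, 13.9 and 24.7 CPM with medium, 4.78, 14.1 and 25.8 CPM with cells and 7.27, 23.1 and 84.5 CPM with washed cells. Averaged over groups, ARL15 was -4.10 (SE 0.434), -4.23 (SE 0.422) and -3.13 (SE 0.425) against naive, or 17.1-fold, 18.8-fold and 8.75-fold lower. The ratios of naive to mean exposed CPM were 6.23, 6.69 and 2.85 with naive replicate 1 and 28.6, 30.7 and 13.1 with replicate 2. Without the 6 libraries that stood apart, ARL15 with washed cells was at -3.84 (SE 0.390) against naive. As for SKAP1, the ratio to replicate 2 was several times that to replicate 1.

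Among the splenocytes given medium, the ARL15 levels were 24.7 and 16.04 CPM in normoxia without SPP1, 13.5, 18.1 and 17.3 CPM in normoxia with SPP1, 13.9, 15.4 and 13.05 CPM in hypoxia without SPP1, and 11.6, 8.32 and 13.5 CPM in hypoxia with SPP1. On the log2 scale, these groups lay from naive by -3.67 (SE 0.738), -3.99 (SE 0.651), -4.20 (SE 0.656), and -4.54 (SE 0.674). These levels rest on 9 to 37 counts a library, and the medium groups overlapped. Among those given RAW cells, the ARL15 levels were 14.3, 13.998 and 14.9 CPM in normoxia without SPP1, 13.1, 15.9 and 9.63 CPM in normoxia with SPP1, 19.2, 25.8 and 5.91 CPM in hypoxia without SPP1, and 4.78, 11.6 and 18.9 CPM in hypoxia with SPP1. The corresponding values against naive were -4.17 (SE 0.657), -4.33 (SE 0.659), -3.95 (SE 0.658), and -4.46 (SE 0.666) on the log2 scale. The 3 normoxia libraries without SPP1 were close together, and the hypoxia groups spread over a wider range on 6 to 23 counts. Among those given washed RAW cells, the ARL15 levels were 16.6, 28.8 and 13.5 CPM in normoxia without SPP1, 84.5, 80.9 and 7.27 CPM in normoxia with SPP1, 11.6, 43.8 and 10.02 CPM in hypoxia without SPP1, and 41.8, 17.4 and 37.99 CPM in hypoxia with SPP1. In log2 units against naive these were -3.72 (SE 0.643), -2.21 (SE 0.607), -3.57 (SE 0.640), and -3.02 (SE 0.624). The washed libraries spanned the widest range of the 3 modes, from 7.27 to 84.5 CPM, and normoxia with SPP1 held both ends of it. Its 2 high libraries stood apart on the principal component map, at 51 and 70 counts, and the remaining library of that group had 8 counts.

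TIAM1, the RAC1 exchange factor, was lowest with cells in mean and median level. Between cells and washed cells, TIAM1 did not pass the threshold of the test given below. Its lowest, median and highest levels were 31.4, 65.6 and 129.7 CPM with medium, 18.7, 39.4 and 57.1 CPM with cells and 11.3, 61.2 and 98.3 CPM with washed cells. Averaged over groups, TIAM1 was -2.64 (SE 0.327), -3.60 (SE 0.313) and -2.92 (SE 0.317) against naive, or 6.25-fold, 12.1-fold and 7.58-fold lower. The ratios of naive to mean exposed CPM were 8.08, 15.3 and 9.90 with naive replicate 1 and 4.42, 8.38 and 5.41 with replicate 2. For TIAM1 the larger ratios came with replicate 1, unlike SKAP1 and ARL15.

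Among the splenocytes given medium, the TIAM1 levels were 80.9 and 129.7 CPM in normoxia without SPP1, 72.1, 53.5 and 61.2 CPM in normoxia with SPP1, 94.04, 84.2 and 60.9 CPM in hypoxia without SPP1, and 51.3, 65.6 and 31.4 CPM in hypoxia with SPP1. Set against naive, the 4 medium groups gave -2.08 (SE 0.514), -2.84 (SE 0.462), -2.48 (SE 0.455), and -3.17 (SE 0.468) on the log2 scale. The highest medium library, replicate 3 of normoxia without SPP1 at 129.7 CPM, was among those that stood apart. Among those given RAW cells, the TIAM1 levels were 47.6, 27.995 and 39.1 CPM in normoxia without SPP1, 37.03, 43.6 and 44.4 CPM in normoxia with SPP1, 39.7, 18.7 and 18.7 CPM in hypoxia without SPP1, and 48.6, 57.1 and 28.7 CPM in hypoxia with SPP1. These 4 groups fitted against naive gave -3.54 (SE 0.476), -3.42 (SE 0.471), -4.12 (SE 0.495), and -3.31 (SE 0.469) on the log2 scale. The group of hypoxia without SPP1 held the lowest cells libraries, at 18.7 CPM each, of which 1 stood apart. Among those given washed RAW cells, the TIAM1 levels were 45.6, 68.8 and 51.8 CPM in normoxia without SPP1, 33.1, 98.3 and 56.3 CPM in normoxia with SPP1, 66.5, 38.6 and 71.3 CPM in hypoxia without SPP1, and 11.3, 66.1 and 91.2 CPM in hypoxia with SPP1. Log2 fold changes against naive were here -3.01 (SE 0.466), -2.82 (SE 0.465), -2.92 (SE 0.465), and -2.94 (SE 0.464). The single lowest exposed value of TIAM1, 11.3 CPM on 7 counts (interval 4.53 to 23.2), was in a library that stood apart.

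LYPLA2, the thioesterase, followed the reverse order of SKAP1 in mean level and was lowest with washed cells. Between cells and washed cells, LYPLA2 did not pass the threshold of the test given below. Its lowest, median and highest levels were 6.34, 16.3 and 35.1 CPM with medium, 2.96, 8.99 and 17.6 CPM with cells and 0, 5.39 and 9.32 CPM with washed cells. Averaged over groups, LYPLA2 was -2.27 (SE 0.404), -3.25 (SE 0.396) and -4.05 (SE 0.407) against naive, or 4.84-fold, 9.53-fold and 16.5-fold lower. The ratios of naive to mean exposed CPM were 4.09, 8.27 and 15.1 with naive replicate 1 and 4.84, 9.78 and 17.8 with replicate 2. The choice of naive library thus made little difference for this gene.

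Among the splenocytes given medium, the LYPLA2 levels were 19.4 and 12.6 CPM in normoxia without SPP1, 6.34, 7.64 and 16.3 CPM in normoxia with SPP1, 26.98, 15.4 and 13.9 CPM in hypoxia without SPP1, and 22.2, 35.1 and 31.4 CPM in hypoxia with SPP1. Relative to naive, the fit put these groups at -2.39 (SE 0.623), -3.06 (SE 0.572), -2.15 (SE 0.543), and -1.50 (SE 0.534) on the log2 scale. Hypoxic medium with SPP1 held the 2 highest exposed values of LYPLA2, and the 2 lowest medium values were in normoxia with SPP1. Among those given RAW cells, the LYPLA2 levels were 6.67, 6.00 and 10.96 CPM in normoxia without SPP1, 14.7, 17.6 and 13.3 CPM in normoxia with SPP1, 10.8, 3.51 and 2.96 CPM in hypoxia without SPP1, and 7.17, 12.4 and 5.74 CPM in hypoxia with SPP1. The same groups were, against naive, at -3.38 (SE 0.581), -2.46 (SE 0.548), -3.87 (SE 0.615), and -3.30 (SE 0.574) on the log2 scale. All 12 cells libraries were below 18 CPM, on 3 to 21 counts. Among those given washed RAW cells, the LYPLA2 levels were 9.32, 2.79 and 0 CPM in normoxia without SPP1, 8.28, 1.16 and 6.36 CPM in normoxia with SPP1, 2.89, 5.22 and 5.57 CPM in hypoxia without SPP1, and 6.44, 9.18 and 4.22 CPM in hypoxia with SPP1. Compared with naive, these groups were at -4.35 (SE 0.631), -4.01 (SE 0.628), -4.18 (SE 0.625), and -3.65 (SE 0.603) on the log2 scale. Washed libraries had 0 to 10 counts of LYPLA2 each. The library with 0 counts, replicate 3 of normoxia without SPP1, has an exact 95% interval of 0 to 3.82 CPM.

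**Figure D2:**
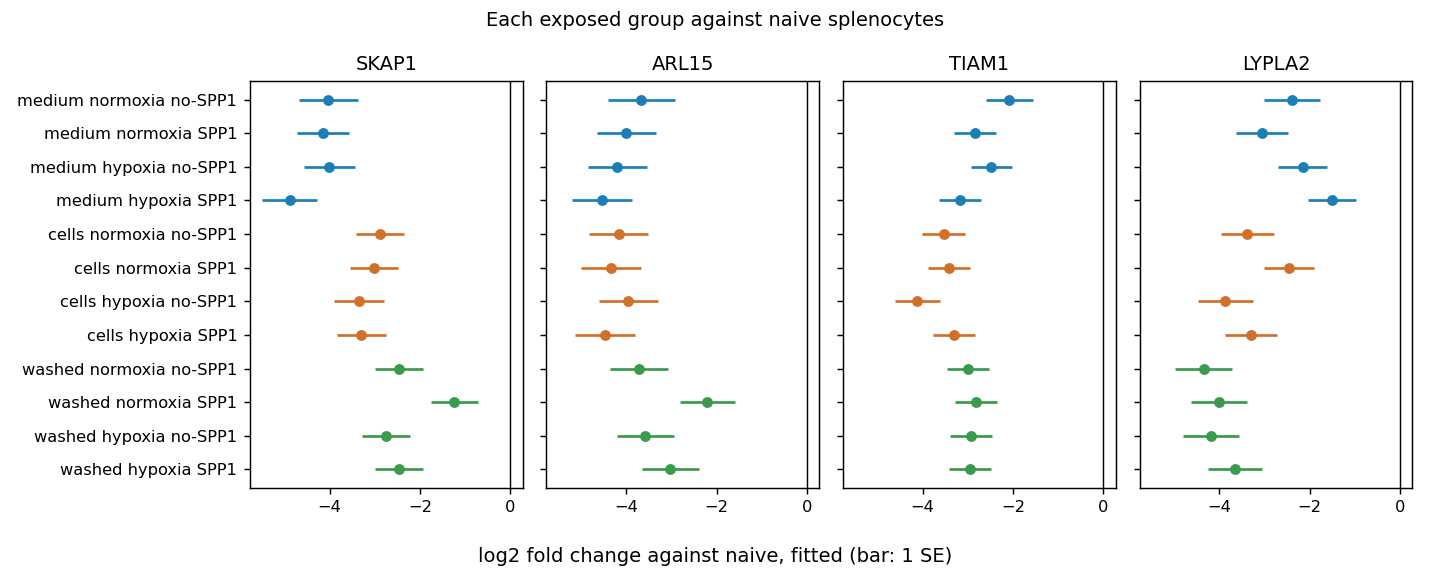
Fitted log2 fold change against naive (x axis) of SKAP1, ARL15, TIAM1 and LYPLA2 in each of the 12 exposed groups (rows), with bars of 1 standard error and a line at 0. All 48 points lie below 0, from -4.88 (SKAP1, medium hypoxia SPP1) to -1.24 (SKAP1, washed normoxia SPP1).

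In bulk RNA of mixed splenocytes, fewer cells of a type and less RNA per cell cannot be told apart, and this holds for each of the results here. The median log2 fold change over all 5193 tested IDs was 0.11 for medium, 0.04 for cells and 0.04 for washed against naive.

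The comparison of the exposure modes with each other did not enter the choice of the genes and was tested with edgeR's quasi-likelihood test, with p-values adjusted over all 5193 IDs by Benjamini-Hochberg. A gene is referred to as called at an adjusted p under 0.05. The question is whether splenocytes that met the RAW cells differed from those that met only their medium, and whether a wash of the RAW cells changed the level. The modes differed widely over all IDs, with 48.7% of IDs called for cells against medium, 58.7% for washed against medium and 7.24% for washed against cells. A call of a single gene between medium and either of the others is therefore common in these data.

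Cells against medium called 3 of the 4 genes, of which 1 was higher and 2 were lower. SKAP1 rose with cells, from 11.1 ± 5.83 CPM (SD, n = 11) with medium to 24.5 ± 7.39 CPM (SD, n = 12). This was 2.19-fold, or 1.13 on the log2 scale (SE 0.286, adjusted p = 0.00138). TIAM1 fell from 71.4 ± 25.97 to 37.6 ± 11.97 CPM, a difference of -0.95 on the log2 scale (SE 0.223, adjusted p = 0.000603). LYPLA2 fell from 18.9 ± 9.30 to 9.32 ± 4.65 CPM, by a similar amount, with -0.98 (SE 0.286, adjusted p = 0.00501). The GTPase ARL15, at 15.04 ± 4.21 and 13.997 ± 5.80 CPM, differed by -0.13 (95% interval -0.80 to 0.54, adjusted p = 0.774), so a difference larger than about 1 log2 unit lies outside the interval and a smaller one may exist. Individual medium and cells libraries overlapped for each of the 4 genes. Without the 6 libraries that stood apart, the same 3 differences kept their direction, at 1.52 for SKAP1, -0.76 for TIAM1 and -0.87 for LYPLA2. That fit tested 5819 IDs and left 2 groups with 1 library, so no calls are given from it.

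Washed against medium also called 3 of the 4 genes, with SKAP1 and ARL15 higher and LYPLA2 lower. SKAP1 was 50.02 ± 38.5 CPM (SD, n = 12) with washed cells, 4.10-fold its level with medium (log2 fold change 2.04, SE 0.284, adjusted p = 1.88e-07). Of the 12 washed libraries, 11 were above the highest medium library for this adaptor gene, the exception being 21.2 CPM in hypoxia without SPP1 replicate 3. LYPLA2 was 5.12 ± 3.03 CPM, 3.42-fold lower than with medium (-1.77, SE 0.310, adjusted p = 8.74e-06). ARL15 was 32.9 ± 26.5 CPM, higher than with medium by 0.97 on the log2 scale (SE 0.321, adjusted p = 0.00955). TIAM1, at 58.2 ± 24.4 CPM, was not called (-0.28, 95% interval -0.72 to 0.17, adjusted p = 0.279). Without the 6 libraries, the differences were 1.96 for SKAP1 and -1.64 for LYPLA2, whereas that of ARL15 shrank to 0.15. The ARL15 call was lost when washed hypoxia no-SPP1 replicate 2 alone was left out (0.72, adjusted p = 0.0524).

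Washed against cells called 2 of the 4 genes, both higher with washed cells. SKAP1 was 1.88-fold its level with cells (log2 fold change 0.91, SE 0.255, adjusted p = 0.0252) and ARL15 2.14-fold (1.10, SE 0.314, adjusted p = 0.0275). TIAM1 (0.67, 95% interval 0.23 to 1.12, adjusted p = 0.0534) and LYPLA2 (-0.80, 95% interval -1.45 to -0.14, adjusted p = 0.119) did not pass the threshold. Which genes were called here turned on few libraries. Without the 6 that stood apart, the differences shrank to 0.45 for SKAP1 and 0.44 for ARL15, and that of TIAM1 was 0.71. With CPM scaled as for all 37 libraries, the mean SKAP1 level was 34.7 CPM in the 9 remaining washed and 25.1 CPM in the 11 remaining cells libraries. That of ARL15 was 20.8 against 12.9 CPM.

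Leaving out single libraries moved these calls. SKAP1 lost its call in 4 of 24 such fits, without washed hypoxia no-SPP1 replicate 2, washed normoxia SPP1 replicate 2, cells hypoxia no-SPP1 replicate 3 or cells hypoxia SPP1 replicate 3, with a log2 fold change of 0.75 to 0.86 and an adjusted p of 0.0536 to 0.0699. ARL15 lost its call in 5 of 24, without washed normoxia SPP1 replicate 1 or 2, washed hypoxia no-SPP1 replicate 2, washed normoxia no-SPP1 replicate 2 or cells hypoxia no-SPP1 replicate 3 (0.85 to 1.03, adjusted p 0.0529 to 0.110). TIAM1 gained one in 6 of 24, without washed hypoxia SPP1 replicate 1, washed normoxia SPP1 replicate 1 or 3, cells hypoxia no-SPP1 replicate 1 or 2 or cells hypoxia SPP1 replicate 2 (0.65 to 0.79, adjusted p 0.0149 to 0.0494). LYPLA2 gained one without washed normoxia no-SPP1 replicate 1 (-1.13, adjusted p = 0.0393). The direction of each gene stayed as it was in all of these fits.

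**Figure D3:**
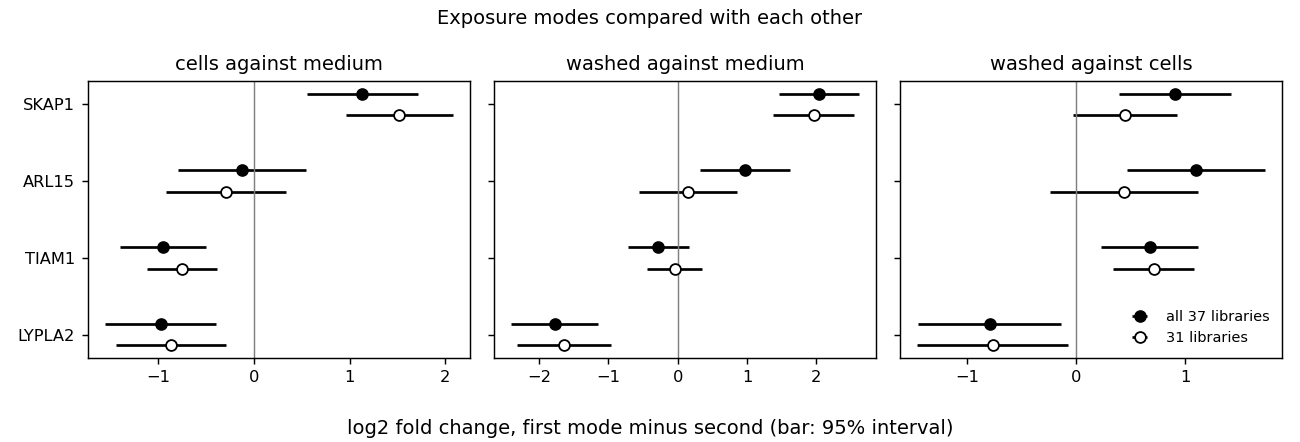
Log2 fold change between exposure modes (x axis, first mode minus second) of SKAP1, ARL15, TIAM1 and LYPLA2 with 95% intervals and a line at 0. Filled points use all 37 libraries and open points the 31 left without the 6 that stood apart. For washed against medium the ARL15 point moves from 0.97 to 0.15, and the SKAP1 and LYPLA2 points stay near 2.0 and -1.7.

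The 3 comparisons of modes share libraries, so they are given side by side and not counted as separate evidence. Read in this way, SKAP1 was lowest with medium and LYPLA2 highest with medium, and both held with and without the libraries that stood apart. TIAM1 was lower with cells than with medium in both fits. ARL15 was called for washed cells against the other modes with those libraries included. Without them its differences shrank to 0.15 against medium and 0.44 against cells.

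The effect of SPP1 given to the RAW cells was tested within each mode as the average of the differences in normoxia and hypoxia. Only the washed mode is labelled with a media wash. Whether added SPP1 itself reached the splenocytes with medium or unwashed cells was not tested. None of the 4 genes was called in any mode by edgeR or by DESeq2. The background was also low, with 0.25% of all IDs called for SPP1 in medium, 0% in cells and 0.0193% in washed. At an unadjusted p under 0.05 the genes numbered 1 of 4 in medium, 0 in cells and 2 in washed. In medium, TIAM1 was 60.9, 84.2 and 129.7 CPM (lowest, median, highest of 5) without SPP1 and 31.4, 57.3 and 72.1 CPM with it, a log2 fold change of -0.72 (95% interval -1.36 to -0.09, adjusted p = 0.486). The groups overlapped. The medium libraries that stood apart were without SPP1, and without the 6 libraries the TIAM1 difference shrank to -0.47. In washed, ARL15 was 10.02, 15.02 and 43.8 CPM without SPP1 and 7.27, 39.9 and 84.5 CPM with it (1.03, 95% interval 0.17 to 1.90, adjusted p = 0.408). SKAP1 was 21.2, 31.6 and 53.01 and 27.2, 42.5 and 159.6 CPM (0.75, 95% interval 0.04 to 1.47, adjusted p = 0.458). All 3 washed libraries that stood apart carry the SPP1 label, and without the 6 libraries these values turned to -0.55 for ARL15 and -0.15 for SKAP1. Leaving out washed normoxia SPP1 replicate 3 alone gave ARL15 a log2 fold change of 1.33 and an adjusted p of 0.0419. LYPLA2 and TIAM1 in washed differed by 0.44 (95% interval -0.56 to 1.44) and 0.08 (-0.54 to 0.70), both intervals spanning 0.

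With cells, the SPP1 differences were -0.04 for SKAP1 (95% interval -0.79 to 0.70), -0.34 for ARL15 (-1.27 to 0.60), 0.47 for TIAM1 (-0.18 to 1.11) and 0.74 for LYPLA2 (-0.11 to 1.59), with every adjusted p near 1. The intervals reach beyond 1 log2 unit on one side for ARL15, TIAM1 and LYPLA2, so an effect of that size in that direction is not excluded. In medium, the other genes differed by -0.50 (SKAP1, -1.38 to 0.39), -0.33 (ARL15, -1.29 to 0.63) and -0.01 (LYPLA2, -0.73 to 0.70).

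The oxygen level of the RAW culture was tested in the same way, and again none of the 4 genes was called in any mode by either tool. Hypoxia called 0.077% of all IDs in medium, 3.62% in cells and 0.0385% in washed. At an unadjusted p under 0.05 the genes numbered 1 of 4 in medium, 0 in cells and 1 in washed. In medium, LYPLA2 was 6.34, 12.6 and 19.4 CPM in normoxia and 13.9, 24.6 and 35.1 CPM in hypoxia (0.90, 95% interval 0.10 to 1.70, adjusted p = 0.611), and the groups overlapped. Without the 6 libraries that stood apart, the LYPLA2 difference shrank to 0.59. In washed, SKAP1 was 27.2, 43.1 and 159.6 CPM in normoxia and 21.2, 36.5 and 44.9 CPM in hypoxia (-0.76, 95% interval -1.47 to -0.05, adjusted p = 0.554), and without the 6 libraries the difference was 0.07. With cells, where hypoxia called most IDs, the differences were -0.37 for SKAP1 (-1.11 to 0.38), 0.04 for ARL15 (-0.90 to 0.98), -0.24 for TIAM1 (-0.88 to 0.40) and -0.66 for LYPLA2 (-1.52 to 0.19, adjusted p = 0.425). Every one of these intervals spans 0.

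Whether an effect of SPP1 or hypoxia differed between modes was tested as a difference of differences, and none of the 4 genes was called. The background was 0% for SPP1 in cells minus medium, 0.481% for hypoxia in cells minus medium, 0% for SPP1 in washed minus cells and 0.173% for hypoxia in washed minus cells. At an unadjusted p under 0.05 there was 1 gene in each of the first 3 and 0 in the last. These were TIAM1 for SPP1 in cells minus medium (1.19, SE 0.446, adjusted p = 0.801), LYPLA2 for hypoxia in cells minus medium (-1.56, SE 0.577, adjusted p = 0.342) and ARL15 for SPP1 in washed minus cells (1.37, SE 0.628, adjusted p = 0.656). Without the 6 libraries that stood apart, TIAM1 was at 0.85, LYPLA2 at -1.14 and ARL15 at -0.43, so the ARL15 value changed sign. The 3 were named after their values were seen. For SPP1 in cells, SPP1 in cells minus medium and SPP1 in washed minus cells, edgeR called 0 IDs, with 87, 255 and 391 IDs at an unadjusted p under 0.05, while DESeq2 called 0, 0 and 3.

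Among themselves the 4 genes did not move as a set within the exposed libraries. Over the 35 exposed libraries, Pearson's r of the log2 CPM was 0.54 for SKAP1 with ARL15 and -0.59 for SKAP1 with LYPLA2, and between -0.27 and 0.13 for the other 4 pairs. After the group means were removed, SKAP1 with ARL15 stayed at 0.43, and SKAP1 with LYPLA2 was at -0.09. These are descriptions, and the points share depth, experiment and the few libraries that stood apart. In 5 of the 12 washed libraries ARL15 was above 30 CPM, and SKAP1 was above 40 CPM in those 5 and in 1 more.

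**Figure D4:**
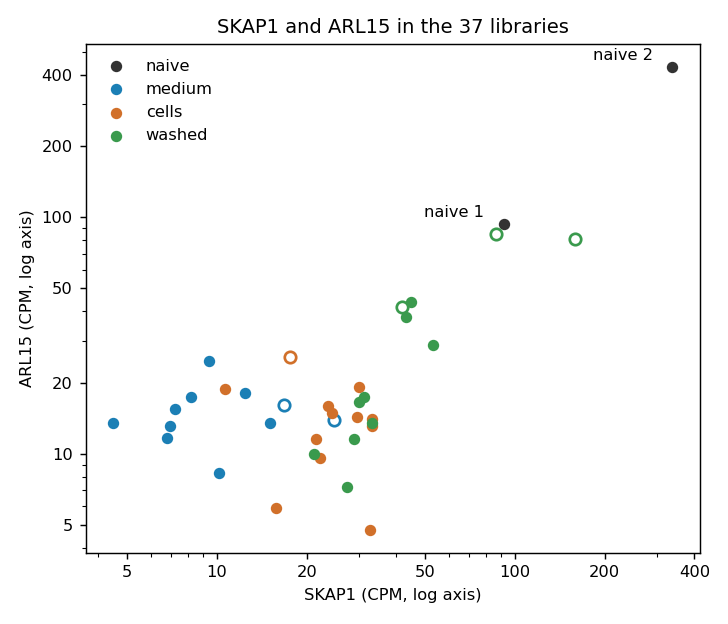
CPM of ARL15 (y axis, log scale) against SKAP1 (x axis, log scale) in the 37 libraries, coloured by naive, medium, cells and washed, with open circles for the 6 libraries that stood apart. The naive libraries lie at the upper right. An open washed point lies next to naive replicate 1, and another lies to its right, at 159.6 CPM of SKAP1. The cells libraries lie to the right of most medium libraries at a like ARL15 level.

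The IDs most like the 4 genes over the 37 libraries, by Pearson's r with the mean of their standardised log2 CPM, were ENSG00000137497.18 (r = 0.87) and ENSG00000090905.19 (r = 0.86). The first was at 1898 and 2868 CPM in the naive libraries and at most 806 CPM in any exposed library, and the second at 1615 and 2598 CPM and at most 732 CPM. By rank the likeness was weaker, with a Spearman's rho of 0.46 and 0.47. These 37 libraries include the naive ones on which the 4 genes were chosen, so nothing is read from the likeness over them. Within the 35 exposed libraries, the ID most like each gene was ENSG00000100354.21 for SKAP1 (r = 0.92), ENSG00000114127.11 for ARL15 (r = 0.85), ENSG00000136875.13 for TIAM1 (r = 0.75) and ENSG00000074266.22 for LYPLA2 (r = 0.71). These 4 were different IDs, and of them ENSG00000100354.21 followed the order of SKAP1, with mean levels of 342, 736 and 1069 CPM in medium, cells and washed. Its naive libraries, at 893 and 1343 CPM, were not above all exposed libraries, which reached 2051 CPM.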

How the data were processed

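Splenocyte RNA of 37 libraries was read with a QuantSeq 3′ mRNA-seq kit (single reads, stranded, with molecular identifiers). Per the series text, the authors trimmed reads with bbduk, aligned them to the human assembly GRCh38 with STAR 2.7.10b and counted genes with featureCounts (Rsubread 2.0.3). The authors deposited raw counts per human Ensembl ID, all of them whole numbers. The annotation release, the strand setting, multiply aligned reads and the use of molecular identifiers are not given in the sources used here, so a count may include PCR copies. A minimum RNA integrity was stated beside a range that reaches below it, and no value per library was used.

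Groups came from the treatment labels and replicate numbers from the titles. Counts were analysed in R 4.3.3 with edgeR 4.0.16. IDs were kept by filterByExpr (minimum count 10), which left 5193 of 22657 IDs with a count, holding 97.8% to 99.4% of each library. With TMM scaling, the 37 libraries entered 1 quasi-likelihood fit that had 13 group means and no replicate term. Modes were averaged over groups with equal weight. CPM used the scaled sizes, and log2 CPM a prior count of 2. Standard errors were the log2 fold change divided by the square root of F. The procedure was tested on simulated data.

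The genes, the lists and the tests were chosen with earlier results of these data known. Named IDs were the 4 genes, the 2 IDs most correlated with their mean over 37 libraries and the 1 most correlated with each over the 35 exposed libraries. Lists of pathway genes and cell type markers were set by symbol and not used, since 0 IDs were in the gene table. Alternatives were another scaling (RLE), no filter on low counts, the replicate number as a block, only the modes compared, DESeq2 1.42.0 and leaving out each library. Leaving out the 6 libraries that stood apart was added after the data had been seen.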

Additional observations from a re-analysis of the deposited data

Results flagged for a closer look

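Within each mode, sets of 5 or 6 libraries were formed by SPP1 or by oxygen, 1 gene at a time. In each of these 48 sets, the highest and lowest values were compared with the rest by Dixon's test. Chance passes this test in about 1 in 20 sets, and 2 libraries passed. Each exposed library entered 2 sets per gene, so the sets are not separate. ARL15 was at 24.7 CPM in medium from normoxia without SPP1, replicate 2, while the other 4 medium libraries without SPP1 lay between 13.05 and 16.04 CPM. SKAP1 was at 24.7 CPM in medium from hypoxia without SPP1, replicate 1, while the other 5 hypoxic medium libraries lay between 4.49 and 10.2 CPM. The second of these is among the libraries that stood apart from their mode over all tested IDs, and the first is not. No difference of SPP1 or hypoxia effects between modes passed the threshold for any of the 4 genes.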

How the results depend on the processing

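The falls from naive kept their direction in every alternative, but for SKAP1 and ARL15 their size rested on naive replicate 2. Without that library SKAP1 was at -3.06, -1.92 and -0.99 (medium, cells, washed against naive, log2) and ARL15 at -2.64, -2.76 and -1.63. Leaving out single libraries gave -4.85 to -3.06, -3.71 to -1.92 and -2.79 to -0.99 for SKAP1, and -4.75 to -2.64, -4.86 to -2.76 and -3.75 to -1.63 for ARL15. RLE scaling moved the median of all IDs for cells against naive from 0.04 to -0.07. The 3 calls of cells against medium and those of SKAP1 and LYPLA2 for washed against medium held in every alternative.

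The count of genes called for washed against cells, 2 as reported, was 1 with only the libraries of the modes compared (ARL15 1.11, adjusted p = 0.0532). It was 0 to 3 when single libraries were left out. TIAM1 was called there with RLE scaling (0.67, adjusted p = 0.0487), with every ID that had a count (0.67, adjusted p = 0.0445) and with DESeq2 (0.67, adjusted p = 0.0249). The cause was not tested. For SPP1 in washed, 0 to 1 genes were called when single libraries were left out.

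Differences within modes that were not called changed sign in some settings. Without the 6 libraries these were, for SPP1, SKAP1 (0.18) and LYPLA2 (0.017) in medium and SKAP1 (-0.15) and ARL15 (-0.55) in washed, and, for hypoxia, ARL15 in cells (-0.18) and SKAP1 (0.074), ARL15 (1.03) and TIAM1 (0.28) in washed. LYPLA2 for SPP1 in medium was at 0.015 with RLE scaling and 0.011 with DESeq2, which gave it no adjusted p. Leaving out single libraries gave ranges across 0 for SPP1 of LYPLA2 in medium (-0.27 to 0.18), SKAP1 in cells (-0.26 to 0.12) and TIAM1 in washed (-0.16 to 0.32), and for hypoxia of ARL15 in cells (-0.22 to 0.25), LYPLA2 in washed (-0.034 to 0.94) and TIAM1 in washed (-0.30 to 0.20).

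Whether the replicate numbers pair the libraries was not tested. Deviations from group means correlated at -0.48 to 0.53 over 187 same-numbered pairs (median 0.004), with 35 pairs over 0.1. The median over differently numbered pairs was 0.0007. Of the 35 exposed libraries, 16 correlated best with their own number. As there are only 3 replicate numbers, many would do so by chance, and nothing is read from this count. With the replicate number as a block, 3, 3 and 2 genes were called for cells against medium, washed against medium and washed against cells and 0 elsewhere, as without it. Fits without the 6 libraries leave 2 groups with 1 library, taken to vary like the others. LYPLA2 in washed was too low to be fitted from the washed libraries alone. Depth limits LYPLA2 most, with 0 to 38 counts in an exposed library.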
